A study of Mus musculus with 20 samples.

Results

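The livers of 5 mice given anti-CD40 together with antibiotics (ABX) were compared with those of 5 control mice given ABX, 10 of the 20 mice in the series. The other 10 mice formed the same 2 groups without ABX, also 5 and 5. The libraries were chosen by the group named in their titles: Control_ABX, mice 1 to 5, and Anti-CD40_ABX, mice 11 to 15. All mice were separate animals, each sampled once, so n counts mice. ABX was common to both groups, and anti-CD40, an antibody to the receptor CD40, was the difference between them. The sources used here do not state the strain, age or sex of the mice, what the control mice received, which antibiotics were used, or when and at what dose the antibody was given. Nor do they say if it stimulates CD40.

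CD40, a member of the TNF receptor family, is carried by B cells, dendritic cells and macrophages. When its ligand on T cells engages it, signalling passes through TRAF adaptors to canonical and noncanonical NF-kB, and antigen-presenting cells release cytokines and raise MHC class II. In the liver, where most cells are hepatocytes, such cytokines are known to induce interferon-response and acute phase genes and to lower genes of drug and nutrient metabolism. Antibiotics deplete the gut bacteria whose products reach the liver through the portal vein.

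The deposited counts were taken over human exon intervals laid on reads aligned to mm10. Each mouse gene was therefore measured only over the stretches of its exons that those coordinates happen to cover, 372 bp for the median gene, and is named here by the mouse annotation. Tgtp2, for example, was counted over 692 bp on chromosome 11 (49057194 to 49059112), Parp12 over 301 bp on chromosome 6 (39111511 to 39111811), Lpin1 over 432 bp on chromosome 12 (16548877 to 16589580) and Cyp2c23 over 633 bp on chromosome 19 (44006791 to 44013717). Of the annotated genes, 4217 had counts and 2200 passed the filter on low counts. No stretch of Cd40, Saa1, Ifng, Tnf, Il6 or Cyp7a1 was measured. Levels are normalised counts per 1000000 (CPM), and changes are log2 fold changes, anti-CD40 minus control, ± SE. A gene was called at an edgeR adjusted p (Benjamini-Hochberg over the 2200 genes) under 0.05.

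Libraries held 6201453 to 7282519 counted fragments in control mice and 5053014 to 5874749 in anti-CD40 mice. All control libraries sat in plate column 3 and all anti-CD40 libraries in column 4, so in these 10 libraries column and treatment cannot be told apart. A fit with column as a term, which draws on the 10 mice without ABX, called 690 genes, of which 676 were also called without that term. Among the anti-CD40 mice, mice 14 and 15 differed from mice 11, 12 and 13 in a set of genes. In both, 45 genes were lower than 50% of the lowest of the other 3, and 2 genes were higher than 200% of their highest. No such count is given here for other pairs. Across genes the split was less clear: log2 CPM of mouse 13 correlated at 0.979 and 0.977 with mice 14 and 15, and at 0.976 with both 11 and 12. Results that rest on mice 14 and 15 are given with and without them.

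The makeup of the liver RNA differed between the groups. The mitochondrial genome took 33.5%, 29.5%, 31.2%, 35.1% and 31.6% of counted fragments in control mice 1 to 5 and 25.8%, 23.6%, 23.9%, 22.3% and 20.9% in anti-CD40 mice 11 to 15. Every anti-CD40 mouse lay below every control mouse. Alb, the albumin gene, fell from 17.6% ± 1.78 to 8.88% ± 0.806 of counts (SD, n = 5 each). Counts over several genes, which could not be assigned to any of them, took 45.5% ± 1.19 in control mice and 58.9% ± 0.877 in anti-CD40 mice. For each of these 3 shares the exact two-sided permutation test over all splits of 5 against 5 gave its smallest possible p, 0.00794 (0.00952 adjusted over 6 measures). Counts over several genes include part of the mitochondrial counts, so these shares overlap. Of non-mitochondrial fragments, features over several genes took 26.9% to 29.1% in control mice and 50.7% to 52.7% in anti-CD40 mice. The number of genes with a count was 2987 ± 79.3 and 3036 ± 46.3 (exact p = 0.262).

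The largest of the unassigned features lies on chromosome 8 between 109573978 and 109648966 and covers 886 bp of exon of Hp, 98 bp of Dhodh, 74 bp of Txnl4b and 51 bp of Pkd1l3. Hp encodes haptoglobin, an acute phase protein that binds free haemoglobin, and the other genes have no such role. This feature held 1.23%, 1.26%, 1.39%, 1.01% and 1.33% of counts in control mice 1 to 5. In anti-CD40 mice 11 to 15 it held 16.6%, 17.9%, 17.7%, 18.1% and 17.9%. The groups did not overlap; the feature was chosen after its values were seen, and no test was made.

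**Figure D1:**
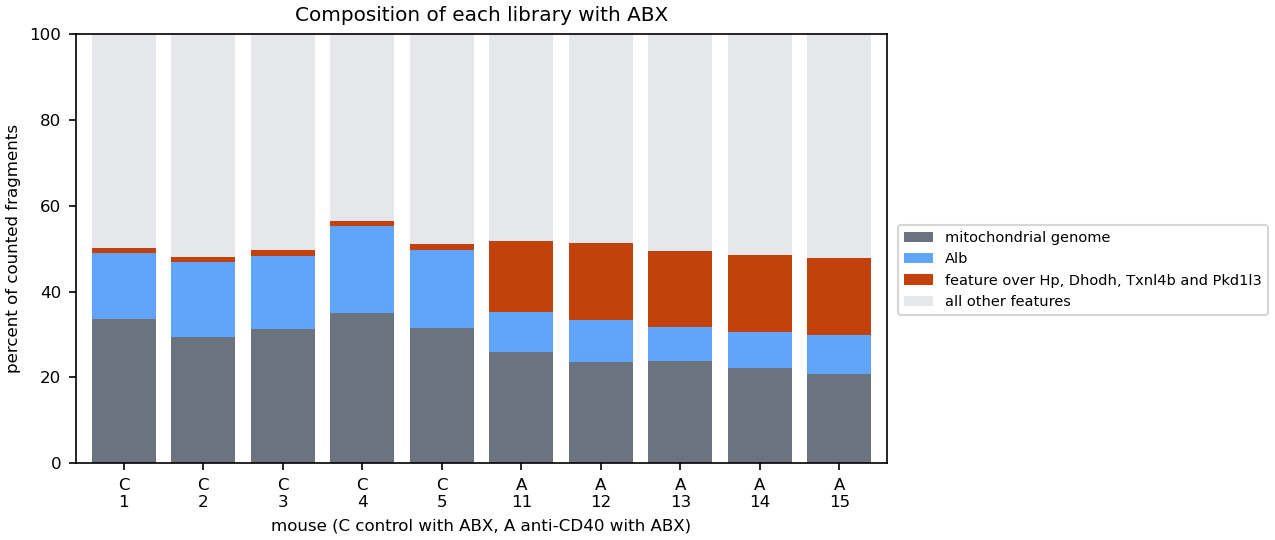
Percent of counted fragments per mouse (vertical axis) for control mice 1 to 5 (C) and anti-CD40 mice 11 to 15 (A), all with ABX, split into the mitochondrial genome, Alb, the feature over Hp, Dhodh, Txnl4b and Pkd1l3, and all other features. Mitochondrial and Alb shares were lower in every anti-CD40 mouse, and the shared feature rose from at most 1.39% to at least 16.6%.

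Of 2200 genes, 51.5% were called with anti-CD40, 26.6% higher and 24.9% lower, that is 585 and 548 genes. The ranges of the 2 groups did not overlap for 37.8% of genes tested. TMM scaling put the median of all genes at 0.02, and library totals put it at 0.37, so changes are read here against that shift. With library totals 76.8% of called genes were higher (1035 higher, 312 lower) against 51.6% with TMM. Of the genes called with TMM, 56 changed sign with library totals; all were lower under TMM, by at most 0.35.

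Interferon-inducible genes rose together. Of 27 tested, 24 rose, none fell and 3 did not pass the test, with a median change of 2.13, and the groups did not overlap for 22. The interferon-inducible T-cell-specific GTPases Tgtp1 and Tgtp2, which attack the vacuoles of intracellular parasites, were among the 4 members with the smallest p, with Parp12, an antiviral ADP-ribosyltransferase.

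The promoters of this group and of the NF-kB group are shown because their members rose together. Searched on both strands of RefSeq promoters (GRCm38.p6, 250 bases before to 50 after the start), the interferon-stimulated response element (written as GAAA, any 2 bases, GAAA) was found in 12 of the 19 interferon-inducible genes that rose and had an entry, or 63.2%. It was found in 4.4% of the 1636 tested genes with an entry and in 3.99% of all 27025 genes of the table. Some of the 12 promoters are close copies of each other (Tgtp1 and Tgtp2, Mndal and Ifi203), so the 12 are not independent. The gamma-activated site (TTC, any 3 bases, GAA) was found in 6 of the 19 (31.6%), against 9.54% of tested genes. A kB site (written as GGG, any 2 bases, TTTCC) was found in 2 of the 7 NF-kB group genes that rose and had an entry (Nfkb2 and Nfkbia), against 1.53% of tested genes. Among all tested genes that rose, 6.19% held the first motif, 10.6% the second and 2.43% the third. Among those that fell the shares were 3.05%, 8.38% and 2.03%. A match is a description of the letters and not evidence of binding.

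In the Tgtp2 and Irgm2 promoters the capitals mark the gamma-activated site and, 2 bases downstream of it, the response element. In the Nfkb2 and Nfkbia promoters they mark the kB match, which lies on the reverse strand in Nfkbia. Tgtp2 is read from chr11:49064163-49064462 (minus strand), Irgm2 from chr11:58214727-58215026 (plus), Nfkb2 from chr19:46304487-46304786 (plus) and Nfkbia from chr12:55492598-55492897 (minus).
Tgtp2: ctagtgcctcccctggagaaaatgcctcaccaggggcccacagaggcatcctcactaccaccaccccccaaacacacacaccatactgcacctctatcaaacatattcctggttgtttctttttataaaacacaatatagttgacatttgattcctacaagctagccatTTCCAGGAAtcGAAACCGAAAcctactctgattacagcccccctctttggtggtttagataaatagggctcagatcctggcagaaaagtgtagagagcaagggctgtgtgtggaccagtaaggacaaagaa
Irgm2: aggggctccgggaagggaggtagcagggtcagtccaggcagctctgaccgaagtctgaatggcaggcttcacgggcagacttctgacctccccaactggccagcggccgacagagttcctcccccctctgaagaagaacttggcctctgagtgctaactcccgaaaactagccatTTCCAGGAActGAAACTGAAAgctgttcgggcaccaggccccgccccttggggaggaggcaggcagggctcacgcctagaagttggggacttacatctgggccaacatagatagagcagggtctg
Nfkb2: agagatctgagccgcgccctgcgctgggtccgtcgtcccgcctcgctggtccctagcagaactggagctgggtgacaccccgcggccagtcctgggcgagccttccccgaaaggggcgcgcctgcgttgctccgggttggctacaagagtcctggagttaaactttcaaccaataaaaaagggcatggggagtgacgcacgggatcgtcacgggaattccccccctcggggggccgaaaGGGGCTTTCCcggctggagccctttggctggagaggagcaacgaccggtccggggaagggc
Nfkbia: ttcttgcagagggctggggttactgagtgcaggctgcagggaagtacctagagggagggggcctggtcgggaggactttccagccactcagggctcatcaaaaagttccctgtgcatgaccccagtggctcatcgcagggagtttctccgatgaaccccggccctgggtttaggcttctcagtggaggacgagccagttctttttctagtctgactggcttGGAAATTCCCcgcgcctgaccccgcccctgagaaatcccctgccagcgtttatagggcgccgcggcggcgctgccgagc

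The longest run shared by the Tgtp2 and Irgm2 promoters was the 17 bases ctagccatttccaggaa, which end in the gamma-activated site. Tgtp2 and its near-identical neighbour Tgtp1 shared 27 bases elsewhere in the window, tggtttagataaatagggctcagatcc.

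Tgtp1 stood at 14.8, 23.5, 16.7, 8.31 and 13.1 CPM in control mice 1 to 5 and at 1505, 1187, 1048, 1276 and 1209.8 CPM in anti-CD40 mice 11 to 15. All anti-CD40 mice were far above all controls, and mouse 11 was the highest (6.35 ± 0.20, adjusted p = 2.01e-16). Its copy Tgtp2 read 6.74, 7.59, 6.32, 4.6 and 5.72 CPM in controls and 541, 401, 342, 379 and 361 CPM with anti-CD40. Again the groups were apart and mouse 11 was highest (6.03 ± 0.14, adjusted p = 1.32e-20); reads of the 2 copies may be split between them. Gm12185, a gene annotated beside them that also codes for a GTPase of this family, went from 0.473 ± 0.567 to 35.2 ± 9.73 CPM (6.19 ± 0.41, adjusted p = 3.15e-11).

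Parp12 rose from 35.8, 40.7, 36.1, 27.4 and 33.2 CPM to 169, 143, 137, 153 and 157 CPM (2.13 ± 0.10, adjusted p = 3.82e-15). The 2 sets of mice did not overlap. Irgm2, a regulatory immunity-related GTPase, went from 12.1 ± 4.94 to 129.6 ± 21.1 CPM (change 3.42), and Rnf213, a large interferon-induced ubiquitin ligase, from 11.6 ± 4.04 to 86.4 ± 24.9 CPM (2.89). Among more abundant members, Ifitm3, which blocks viral entry, rose from 1761 ± 136 to 6289 ± 388 CPM (1.84 ± 0.10), and the secreted Lgals3bp from 151 ± 27.1 to 692 ± 55.7 CPM (2.19 ± 0.12). Ifih1, the cytosolic sensor of double-stranded RNA, rose by 1.42 ± 0.13. The nucleic-acid-sensing PYHIN genes Ifi203, Ifi206, Ifi209 and Mndal rose by 1.04, 2.14, 1.78 and 0.76. The members that did not pass were Ifi207 (-0.21), Irf2 (-0.17) and Irgq (0.22), the last a related GTPase that the name pattern caught.

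Ly6i, a surface protein of monocytes, had no count in any control mouse and 22.4, 17.5, 12.9, 5.08 and 5.4 CPM in anti-CD40 mice 11 to 15, at least 115-fold higher against a floor of 3 counts over the control group. Mice 14 and 15 were the lowest of the 5. Ms4a4c, a membrane protein of haematopoietic cells, went from 0.89 ± 0.502 to 19.6 ± 7.69 CPM (4.43 ± 0.51, adjusted p = 5.9e-07), again with mice 14 and 15 lowest (25.2, 28, 21.7, 12.8 and 10.5 CPM). Ly6i was not called with plate column as a term (adjusted p = 0.289).

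All 13 tested genes of CD40, TNF receptor and NF-kB signalling were called, 11 higher and 2 lower (median 2.27), and the groups did not overlap for 11. The feedback inhibitors of NF-kB were prominent. Nfkbie, the inhibitor IkB epsilon, read 2.09, 2.89, 1.3, 2.12 and 1.29 CPM in controls and 96.4, 81.9, 74.9, 93.3 and 81.2 CPM in anti-CD40 mice. No anti-CD40 mouse came near the controls (5.44 ± 0.19, adjusted p = 6.89e-17). Nfkb2, the p100 subunit of the noncanonical pathway, measured 3.53, 2.71, 1.3, 3 and 3.51 CPM in controls and 46.7, 45.6, 49.3, 44.2 and 45.7 CPM with anti-CD40 over 57 bp (4.02 ± 0.22, adjusted p = 2.33e-13). The 5 anti-CD40 mice agreed closely, while control mouse 3 was low.

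Birc2, the ubiquitin ligase cIAP1 that restrains noncanonical signalling, stood at 9.14, 10.7, 7.63, 11.3 and 5.72 CPM in controls and 71.2, 56.1, 66.8, 59.9 and 67.3 CPM with anti-CD40 (2.85 ± 0.16, adjusted p = 2.33e-13). The death receptor Fas went from 10.4, 11, 11.5, 10.1 and 10.5 CPM to 78.2, 84.8, 68.2, 67.9 and 69.9 CPM (2.78 ± 0.12, adjusted p = 1.04e-15). Both genes separated the groups completely. The atypical inhibitor Nfkbiz rose by 2.44 ± 0.18, Nfkbia by 1.65 ± 0.16 and the decoy receptor gene Tnfrsf22 by 3.54 ± 0.32. Of the IkB kinase, Ikbkb rose (0.94 ± 0.09) and Chuk fell (-0.31 ± 0.09). Chuk was among the genes whose sign changed with library totals. The adaptor Traf6 moved by 0.22 ± 0.08 and the caspase-8 regulator Cflar by 0.30 ± 0.11, with overlapping groups. The Cflar call was lost without control mouse 1 (adjusted p = 0.0962) or 3, or anti-CD40 mouse 12 or 13.

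Of 10 tested genes of microbial sensing and the inflammasome, 8 rose and 1 fell (median 1.33). Ripk2, the kinase through which the peptidoglycan receptors Nod1 and Nod2 signal, stood at 9.63, 10.1, 7.44, 11.8 and 9.23 CPM in control mice 1 to 5 and 232, 167, 168, 211 and 220.3 CPM in anti-CD40 mice 11 to 15. The lowest anti-CD40 mice, 12 and 13, were still far above the highest control (4.37 ± 0.18, adjusted p = 1.93e-14). Nod1 itself read 34.5, 35.1, 25.9, 28.3 and 28.2 CPM in controls and 139, 129.7, 122, 110.0 and 103 CPM with anti-CD40 (1.99 ± 0.16, adjusted p = 7.2e-10). Unc93b1, which carries nucleic-acid-sensing Toll-like receptors to endosomes, went from 42.6 ± 5.26 to 101 ± 4.8 CPM (1.24 ± 0.10, adjusted p = 2.26e-10). Nlrp3 rose by 3.38 ± 0.47, Nlrc4 by 1.15 ± 0.30 and the LPS co-receptor Ly96 by 0.47 ± 0.16. Il1rap, the accessory chain of the interleukin-1 receptor, fell by 2.13 ± 0.42.

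Of 13 cell death genes 9 rose and 3 fell (median 0.59), and Fas, Birc2 and Cflar are shared with the group above. Apaf1, the scaffold of the apoptosome, read 2.73, 2.53, 1.86, 1.06 and 1.85 CPM in controls and 21.6, 15.3, 21.7, 16.2 and 21.6 CPM with anti-CD40. The groups did not overlap (3.24 ± 0.20, adjusted p = 1.15e-12). Ripk3, a kinase of necroptosis, rose by 1.32 ± 0.23. The mitochondrial flavoprotein Aifm1 (-0.63), the kinase Dapk1 (-0.57) and the caspase inhibitor Xiap (-0.54) fell; the Dapk1 call was lost with library totals (adjusted p = 0.205) and with plate column as a term.

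Cytokine and chemokine genes were sparsely measured, and of 16 tested genes 10 rose and 3 fell (median 0.93). With plate column as a term 6 rose and 1 fell. Receptor chains for interleukin 2 and 15 were among the genes with the smallest p. Il2rb, the beta chain shared by both cytokines, read 5.78, 9.58, 8.18, 4.42 and 6.09 CPM in controls and 29, 29.1, 38.2, 25.6 and 33.5 CPM with anti-CD40 (2.19 ± 0.16, adjusted p = 1.86e-11). Il2ra, the alpha chain of activated and regulatory T cells, read 0, 0, 0.372, 0 and 0.369 and 2.7, 2.72, 2.98, 2.16 and 2.47 CPM in the same order (4.01 ± 0.61, adjusted p = 5.31e-06). Both genes were higher in all 5 anti-CD40 mice than in any control. Il15ra rose from 50.1 ± 6.19 to 85.9 ± 7.78 CPM (0.78 ± 0.10, adjusted p = 3.21e-07). The interleukin-18 receptor chains Il18r1 and Il18rap rose by 2.24 ± 0.70 and 2.67 ± 0.47. The chemokine gene Ccl3 had 2 counts in the control group and 82 in the anti-CD40 group, a ratio of 37.6 (95% counting interval 10.1 to 316). Cmtm8, a chemokine-like membrane protein, fell from 119 ± 16 to 68.7 ± 8.94 CPM (-0.80 ± 0.10, adjusted p = 5.97e-07). In the JAK-STAT list 3 of 4 tested genes rose, among them the phosphatase Ptpn2 (2.08 ± 0.24) and Irf5 (0.47 ± 0.11).

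In antigen presentation 3 of 6 tested genes rose and 1 fell (median 0.14). H2-Aa, the alpha chain of MHC class II I-A, rose from 62 ± 18.5 to 386 ± 51.5 CPM (2.64 ± 0.19, adjusted p = 2.65e-10), and H2-DMb1, which loads peptides onto class II, from 4.82 ± 0.828 to 23.9 ± 3.83 CPM (2.31 ± 0.15, adjusted p = 5e-12). The chaperone Canx moved by 0.21 ± 0.08, a call lost without control mouse 1 or anti-CD40 mouse 11 or 12, and Mr1, which presents bacterial vitamin B2 metabolites, fell by 0.99 ± 0.26. The class I genes H2-Q10 (-0.20) and H2-Q1 (0.08) did not pass; both belong to a family of near-identical genes.

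**Figure D2:**
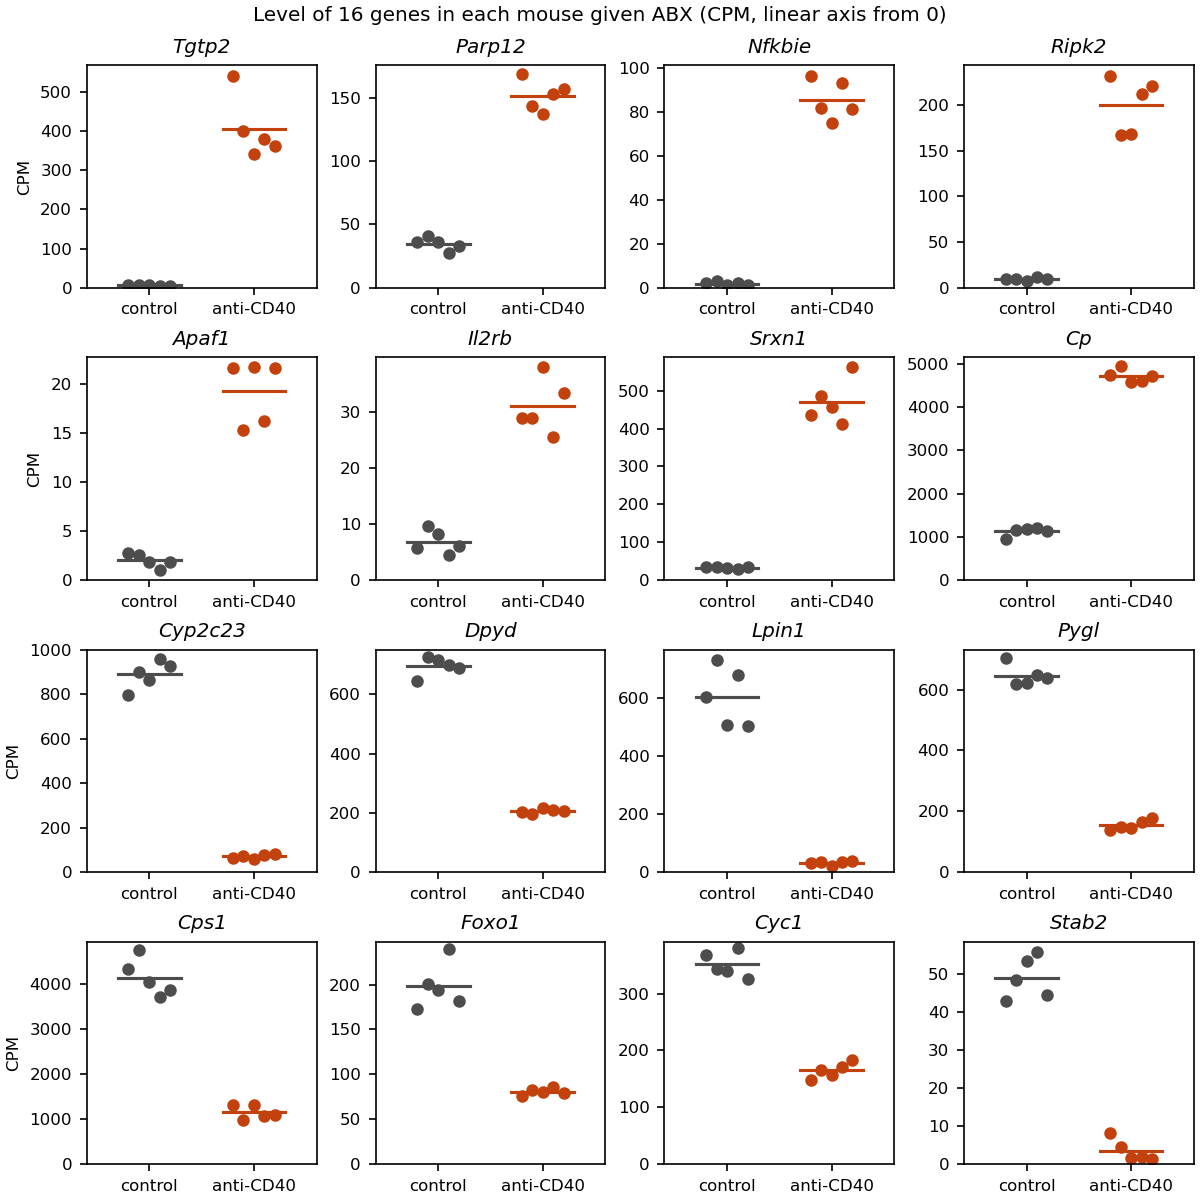
Level in CPM (vertical axes, linear, starting at 0) of 16 genes in the 5 control mice (grey) and the 5 anti-CD40 mice (orange) given ABX; each point is a mouse and each line a group mean. Both groups are apart in all 16 panels, with Tgtp2, Parp12, Nfkbie, Ripk2, Apaf1, Il2rb, Srxn1 and Cp higher and the other 8 lower.

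Marker genes of immune and of liver non-parenchymal cells moved in both directions. In bulk liver RNA, fewer cells of a type and less RNA per cell cannot be told apart. All 4 tested T cell markers rose. Cd8a had 2 counts in controls and 77 with anti-CD40 (ratio 35.3, 95% counting interval 9.45 to 297). Its partner Cd8b1 read 0.642, 0, 0.186, 0.53 and 0 CPM in controls and 1.26, 2.72, 2.98, 2.93 and 2.01 CPM in anti-CD40 mice (3.0 ± 0.56, adjusted p = 7.79e-05). Both were higher in every anti-CD40 mouse, at levels of a few CPM; with plate column as a term Cd8a was not called (adjusted p = 0.157). The summed level of the 7 T cell markers with counts was 5.83 to 10.5 CPM in controls and 33.7 to 47.4 CPM with anti-CD40. Il2rb, described above, made up most of that sum, with 6.81 ± 2.05 and 31.1 ± 4.87 CPM. The 3 markers too low to test had like counts in both groups: 21 in controls and 23 with anti-CD40 for Bcl11b, 2 and 2 for Cd5, and 0 and 1 for Themis. Of the cytotoxic cell list only Gzmk had counts, 1 in controls and 42 with anti-CD40. The immunoglobulin heavy chain Ighm rose from 18.7 ± 2.24 to 30.5 ± 3.21 CPM (0.71 ± 0.16) and Xbp1, needed by plasma cells and also expressed in hepatocytes, from 239 ± 38.6 to 339.7 ± 27.6 CPM (0.51 ± 0.13). Cd79b changed by 0.64 ± 0.30 and did not pass (adjusted p = 0.0774).

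Macrophage genes split. Of 7 monocyte and macrophage markers 4 rose and 3 fell, and of 3 Kupffer cell markers 2 rose and 1 fell. Mrc1, the mannose receptor of resident macrophages and sinusoidal endothelium, read 11.7, 20.1, 20.3, 16.8 and 13.8 CPM in controls and 1.08, 1.53, 0.157, 0.308 and 0 CPM with anti-CD40, where it was near 0 (-4.76 ± 0.41, adjusted p = 1.85e-09). The groups did not overlap. Against this, Spic, the transcription factor of iron-recycling macrophages, rose (4.01, 4.16, 2.42, 3.54 and 3.14 CPM in controls, 15.5, 15, 8.95, 7.24 and 11.7 CPM with anti-CD40, 1.74 ± 0.31, adjusted p = 7.25e-05). Ms4a7 rose by 2.08 ± 0.33 and the scavenger receptor Marco by 1.72 ± 0.64; the Marco call (adjusted p = 0.0344) was lost without mice 14 and 15 (adjusted p = 0.0761), and also without any of mice 1, 3, 4, 5, 12, 13 and 15 alone. The summed level of the 7 monocyte and macrophage markers was 143 to 198 CPM in controls, 546 to 954 CPM in mice 11 to 13 and 306 to 316 CPM in mice 14 and 15.

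Genes of the sinusoidal endothelium, the fenestrated lining that clears waste from blood, were lower: of 10 tested 7 fell and none rose (median -1.66). Stab2, its hyaluronan scavenger receptor, stood at 43, 48.6, 53.4, 55.9 and 44.5 CPM in controls and 8.11, 4.59, 1.73, 1.85 and 1.39 CPM with anti-CD40 (-3.83 ± 0.33, adjusted p = 7.67e-09). Ehd3, an endocytic protein, stood at 84.5, 122, 119, 146 and 109.8 and 13.7, 18.7, 9.43, 6.62 and 6.17 CPM in the same order (-3.42 ± 0.29, adjusted p = 1.18e-08), and coagulation factor F8, made by these cells, at 10.7, 14.6, 13.8, 11.8 and 12.9 and 6.13, 4.76, 2.83, 1.08 and 0.926 CPM (-2.05 ± 0.33, adjusted p = 2e-05). All 3 separated the groups, and within the anti-CD40 group mice 14 and 15 were among the lowest. When stretches from 1 bp were attributed, the fall of Stab2 was 2.11. Adgrl4 fell by 2.86 ± 0.55, the receptors Tie1 and Flt1 by 1.59 ± 0.32 and 1.73 ± 0.41. Pecam1 (-0.53 ± 0.53) and Adgrf5 (-0.77 ± 0.49) did not pass, and both split the anti-CD40 group: Pecam1 read 52.8, 53.5, 35.2, 7.7 and 7.41 CPM in mice 11 to 15 and 44.9 ± 4.62 CPM in controls. The summed level of the 11 endothelial markers with counts was 256 to 358 CPM in controls, 86.7 to 169 CPM in mice 11 to 13 and 43.8 to 45.6 CPM in mice 14 and 15. Without mice 14 and 15 the median was -1.20 and 6 fell.

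Of 14 stellate cell and matrix genes 10 fell and 1 rose (median -1.30); without mice 14 and 15 it was 5 and 2, with a median of -1.01, and with plate column as a term 4 and 0. Fbln5, an elastic fibre protein, read 7.7, 8.85, 4.09, 3.18 and 6.46 CPM in controls and 0.18, 0.51, 0.157, 0.154 and 0.154 CPM with anti-CD40 (-4.62 ± 0.43, adjusted p = 2.21e-09). Col14a1, a fibril-associated collagen, read 50.9, 79.9, 68.3, 40.3 and 58.5 and 12.3, 11.4, 4.24, 1.08 and 0.617 CPM (-3.37 ± 0.59, adjusted p = 0.000125). Both were lower in every anti-CD40 mouse, and Col14a1 was lowest in mice 14 and 15. The basement membrane protein Nid2 fell by 1.10 ± 0.18, and Lama1 by 2.91 ± 0.69, or by 4.97 without mouse 11. The chain gene Col4a2 rose by 1.01 ± 0.32. The summed level of the 25 stellate cell and matrix genes with counts was 269 to 444 CPM in controls, 181 to 343 CPM in mice 11 to 13 and 109.6 to 145 CPM in mice 14 and 15, so mice 11 and 12 lay within the control range. Cholangiocyte markers were few: Sox9, a factor of bile duct cells and of stressed hepatocytes, rose from 1.42 ± 0.722 to 7.7 ± 0.687 CPM (2.43 ± 0.29, adjusted p = 1.36e-07), while Pkhd1 (-0.68) and Bicc1 (-0.74) did not pass. The part of these cell type markers in the changes of the other gene lists was not tested.

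**Figure D3:**
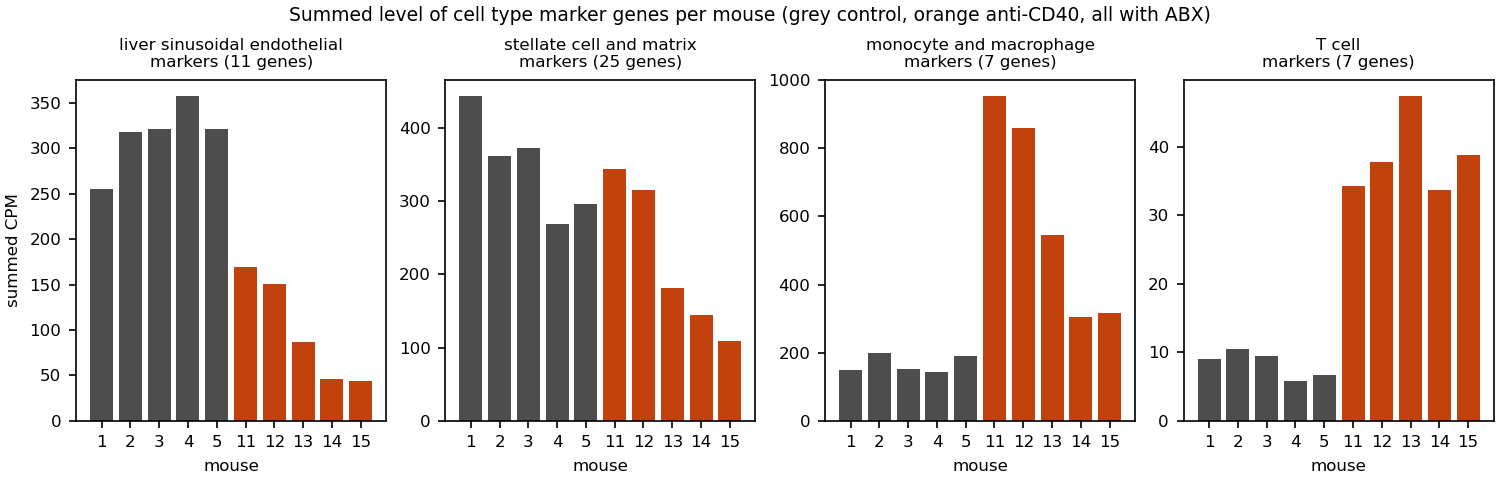
Summed CPM (vertical axes, from 0) of the marker genes of 4 cell types in each mouse given ABX, control mice 1 to 5 in grey and anti-CD40 mice 11 to 15 in orange. Endothelial markers were 256 to 358 CPM in controls and at most 169 CPM with anti-CD40, T cell markers at most 10.5 CPM and at least 33.7 CPM, and mice 14 and 15 were the lowest anti-CD40 mice for the endothelial, matrix and macrophage sums.

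Hepatocyte marker genes changed in both directions, those of secreted proteins among them. Of 9 hepatocyte markers 5 fell and 2 rose (median -0.57), and Alb fell from 205928 ± 34543 to 81136 ± 11136 CPM (-1.34 ± 0.13, adjusted p = 3.71e-09). The antitrypsin genes Serpina1d (-1.30 ± 0.11) and Serpina1e (-1.23 ± 0.16), near-identical copies whose reads may be shared, fell with it, and Apob, the protein of very-low-density lipoprotein, rose from 10503 ± 483 to 13629.8 ± 523 CPM (0.38 ± 0.08, adjusted p = 0.000422).

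Of 5 acute phase and complement genes 3 rose and 1 fell. Cp, the copper-carrying ferroxidase ceruloplasmin, read 946, 1158, 1188, 1194 and 1138 CPM in controls and 4753, 4958, 4589, 4612 and 4736 CPM with anti-CD40 (2.07 ± 0.14, adjusted p = 3.84e-12). Its groups were far apart, with control mouse 1 the lowest. A2m, the protease inhibitor alpha-2-macroglobulin, was at 0.25 ± 0.209 CPM in controls and 5.23, 1.87, 8.64, 2.46 and 1.08 CPM with anti-CD40 (3.85 ± 0.92, adjusted p = 0.00178). Ambp, the precursor of alpha-1-microglobulin and bikunin, rose by 0.71 ± 0.14, and its partner Itih2, a heavy chain that bikunin joins to hyaluronan, fell by 1.03 ± 0.09.

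Serpins outside the antitrypsin pair rose. Serpina3i read 0.642, 1.45, 0, 0.177 and 0.738 CPM in controls and 61.1, 68.2, 68.6, 44.2 and 55.7 CPM with anti-CD40 (6.58 ± 0.27, adjusted p = 3.82e-15). It belongs to a cluster of close copies of antichymotrypsin, so its reads may be shared. Serpinb9, the inhibitor that protects cells from granzyme B, read 15.7, 12.5, 11.3, 17.7 and 14.8 CPM in controls and 109.8, 112, 102, 87.5 and 94.8 CPM with anti-CD40. All 5 anti-CD40 mice exceeded all controls (2.81 ± 0.13, adjusted p = 8e-15).

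Of 6 coagulation genes 4 fell and 1 rose. Cpb2, a carboxypeptidase that slows the breakdown of fibrin, rose from 456 ± 26.9 to 1442 ± 95.9 CPM (1.66 ± 0.15, adjusted p = 2.27e-09). The anticoagulant protein C gene Proc fell from 637 ± 31.1 to 332 ± 29.3 CPM (-0.94 ± 0.09, adjusted p = 4.6e-09). Tfpi, the tissue factor pathway inhibitor, fell by 1.39 ± 0.36, or by 0.83 without mice 14 and 15, in which it was lowest (4.87, 5.44, 3.77, 0.924 and 0.926 CPM).

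Drug-metabolising enzymes fell as a group. Of 21 tested cytochrome P450 and reductase genes 16 fell and 2 rose (median -1.80), and the groups did not overlap for 14. Cyp2c23, an arachidonic acid epoxygenase, read 797, 899.6, 864, 956 and 926 CPM in controls and 62.7, 70.7, 56.9, 75.9 and 83.3 CPM with anti-CD40 (-3.67 ± 0.18, adjusted p = 3.67e-13). Cyp4f14, which hydroxylates leukotrienes and fatty acids, read 551, 633, 650.5, 702 and 585 and 65.8, 73.1, 53.3, 68.5 and 94.5 CPM in the same order (-3.14 ± 0.16, adjusted p = 3.67e-13). Neither gene's lowest control came near its highest anti-CD40 mouse. Cyp2c50 fell by 3.66 ± 0.11 and Cyp2d22 by 1.83 ± 0.11. Cyp2c68, Cyp2c38 and Cyp2c67 fell by 2.58 ± 0.18, 2.32 ± 0.26 and 1.44 ± 0.18, and Cyp2c69, counted over 50 bp, by 4.23 ± 0.42; the Cyp2c genes are close copies whose reads may be shared. The pseudogenes Cyp2d32-ps (-3.81) and Cyp2d37-ps (-2.41) fell too. Cyp1b1, found mainly outside hepatocytes, was called higher (1.53 ± 0.55), but its 17.1, 18.4, 11.5, 3.54 and 3.24 CPM in anti-CD40 mice 11 to 15 left mice 14 and 15 at the control level (3.67 ± 0.407 CPM).

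Conjugating and other oxidising enzymes followed: of 20 tested 12 fell and 3 rose (median -1.07). Dpyd, which breaks down pyrimidines and fluorouracil, read 646, 725, 716, 699 and 688 CPM in controls and 201, 196, 215, 209.6 and 206 CPM with anti-CD40 (-1.76 ± 0.09, adjusted p = 2.34e-14). The 5 mice of each group lay close together. The carboxylesterase Ces1e went from 62.4, 68.1, 66.2, 76 and 55.4 CPM to 5.05, 8.5, 4.71, 6.47 and 6.64 CPM (-3.38 ± 0.22, adjusted p = 2.07e-11), without overlap. The aldehyde dehydrogenases Aldh3a2, Aldh2 and Aldh1a1 fell by 2.23 ± 0.17, 1.06 ± 0.09 and 0.84 ± 0.12. The steroid reductase Akr1d1, which acts in bile acid synthesis, fell by 2.60 ± 0.16. Fmo1, a flavin monooxygenase, rose from 238 ± 16.2 to 560.1 ± 57.7 CPM (1.24 ± 0.12) and the aldehyde oxidase Aox1 by 0.73 ± 0.16, a call lost with plate column as a term.

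All 6 tested genes of lipid synthesis fell (median -1.30), and none of the 6 had overlapping groups. Lpin1, the phosphatidate phosphatase of triglyceride synthesis and a transcriptional co-activator, read 604, 733, 507, 681 and 506 CPM in controls and 31.5, 35.9, 22, 33.9 and 37.2 CPM with anti-CD40 (-4.24 ± 0.29, adjusted p = 6.86e-10). Even the lowest control was far above every anti-CD40 mouse. Elovl2, the elongase of long polyunsaturated fatty acids, read 281, 359, 419, 390.3 and 375 CPM in controls and 62.9, 50.8, 68.2, 59.6 and 71 CPM with anti-CD40 (-2.54 ± 0.15, adjusted p = 2.82e-12). The desaturase Fads2 went from 358 ± 49.1 to 175 ± 19.4 CPM (-1.04 ± 0.14, adjusted p = 1.4e-06) and the acyltransferase Gpam from 589 ± 6.16 to 360.3 ± 36 CPM (-0.71 ± 0.11, adjusted p = 8.26e-06). Scd1 and Scd2, stearoyl-CoA desaturases, fell by 1.56 ± 0.23 and 1.0 ± 0.23.

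Of 6 fatty acid oxidation and ketone body genes 4 fell and 1 rose. The ketone body dehydrogenase Bdh1 read 706, 639, 747, 775 and 793 CPM in controls and 287, 285, 229, 289 and 309 CPM with anti-CD40, lowest in mouse 13 (-1.39 ± 0.14, adjusted p = 1.41e-08). The peroxisomal enzyme Ehhadh fell by 1.42 ± 0.16 and Echdc2 by 0.57 ± 0.09, and the carnitine acetyltransferase Crat rose by 1.05 ± 0.16, counted over 52 bp. Among 10 apolipoprotein and lipid transport genes 6 fell and 2 rose. Apoe fell from 126040.0 ± 5846 to 65779.9 ± 8466 CPM (-0.94 ± 0.11, adjusted p = 1.23e-07), the lysosomal lipase Lipa by 0.96 ± 0.09 and Mttp, which loads lipid onto Apob, by 0.82 ± 0.08. Apol7c, which carries an apolipoprotein L name but is known from antigen-presenting cells, rose from 1.6, 2.71, 2.05, 0.53 and 2.03 CPM to 64.3, 53.9, 39.1, 53.8 and 52.6 CPM (4.88 ± 0.22, adjusted p = 3.35e-15). No control came near the lowest anti-CD40 mouse.

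In carbohydrate metabolism 7 of 14 genes fell and 3 rose (median -0.39), beside 24.9% and 26.6% of all genes tested. With library totals 5 fell and 4 rose (median -0.05). Pygl, the liver glycogen phosphorylase, read 704, 619, 623, 649 and 637 CPM in controls and 139.5, 148, 146, 164 and 178 CPM with anti-CD40 (-2.06 ± 0.11, adjusted p = 1.41e-13). Pcx, the pyruvate carboxylase that feeds gluconeogenesis and the citric acid cycle, went the other way, from 427, 463, 470.0, 461 and 426 CPM to 997, 1311, 1179, 1114 and 1200.0 CPM (1.37 ± 0.12, adjusted p = 1.21e-09). The groups of both genes were apart. The muscle-type phosphofructokinase gene Pfkm fell by 0.61 ± 0.12 (a call lost with library totals), and the urate and glucose transporter gene Slc2a9 by 1.21 ± 0.12. The transcription factors Foxo1 and Foxo3, which insulin holds in check, read 198 ± 25.7 and 61.4 ± 11.9 CPM in controls and 80.6 ± 3.77 and 20.0 ± 1.73 CPM with anti-CD40. They fell by 1.30 ± 0.11 and 1.62 ± 0.13. In the growth hormone and insulin list 5 of 8 fell and 1 rose: besides Foxo1, Foxo3 and Serpina1e, the translation inhibitor Eif4ebp2 fell by 1.22 ± 0.09 and the insulin receptor adaptor Grb14 by 1.01 ± 0.11. Igf2r rose (0.29 ± 0.12), a call lost without any of mice 2, 3, 4, 5, 13 and 14 and in DESeq2 (adjusted p = 0.0525).

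Amino acid breakdown fell: of 12 genes 10 fell and 2 rose (median -0.84). Cps1, the entry enzyme of the urea cycle, read 4342, 4751, 4036, 3714 and 3864 CPM in controls and 1307, 973, 1324, 1069 and 1086 CPM with anti-CD40 (-1.85 ± 0.11, adjusted p = 3.24e-13). Uroc1, an enzyme of histidine breakdown, read 379.9, 416, 414, 433 and 427 and 137, 136, 144, 176 and 159 CPM in the same order (-1.46 ± 0.09, adjusted p = 3.14e-12). Neither gene's groups overlapped. Hal, the enzyme before Uroc1 in that pathway, fell by 1.54 ± 0.11, Agxt, which detoxifies glyoxylate, by 1.40 ± 0.09, and Kynu, of tryptophan breakdown, by 1.11 ± 0.08. Among those that rose was Aldh18a1 (1.12 ± 0.34), which makes proline precursors rather than breaking amino acids down.

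Genes of mitochondrial function differed by list. Of 7 citric acid cycle genes 6 fell and Pcx rose (median -0.61): Idh3b fell from 532 ± 25.6 to 289.6 ± 22.3 CPM (-0.88 ± 0.09, adjusted p = 1.74e-08) and Suclg1 from 219 ± 14.9 to 114 ± 12.2 CPM (-0.94 ± 0.11, adjusted p = 6.02e-08). With library totals 4 fell. Of 8 nuclear genes of the respiratory chain 4 fell and none rose, with a median of -0.31 under TMM and 0.04 under library totals, where 1 rose and 3 fell. Of 9 genes of the mitochondrial ribosome and import 2 fell, Mrpl23 (-0.40 ± 0.11) and Mrps9 (-0.27 ± 0.11, adjusted p = 0.0499), and 7 did not pass (median -0.16); with library totals 5 rose and none fell (median 0.19). Cyc1, cytochrome c1 of complex III, read 367, 344, 340.0, 379.7 and 326 CPM in controls and 148, 165, 157, 171 and 184 CPM with anti-CD40 (-1.09 ± 0.09, adjusted p = 3.15e-10). Uqcrfs1, its Rieske partner, fell by 0.68 ± 0.10, the ATP synthase subunit Atp5c1 by 0.78 ± 0.09 and the complex I subunit Ndufs7 by 0.50 ± 0.09; the last lost its call with library totals (adjusted p = 0.102).

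Of 11 genes of the mitochondrial genome 9 fell and none rose (median -0.95); with library totals 6 fell and 1 rose. The complex I subunits mt-Nd1, mt-Nd2 and mt-Nd5 fell by 1.14 ± 0.12, 1.15 ± 0.11 and 1.22 ± 0.12. Cytochrome b, mt-Cytb, went from 43166 ± 5563 to 21669.9 ± 1986 CPM (-0.99 ± 0.11) and cytochrome oxidase subunit I, mt-Co1, from 16318 ± 1886 to 10959 ± 960.4 CPM (-0.57 ± 0.11). The ribosomal RNA mt-Rnr1 changed by -0.04 ± 0.12 and did not pass.

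Solute carriers, the membrane transporters of small molecules, changed in both directions. Of 48 tested 13 rose and 21 fell, beside 26.6% and 24.9% of all genes tested. The list median was -0.25 under TMM and 0.10 under library totals. Slc2a6, a lysosomal sugar transporter of inflammatory macrophages, read 0.802, 1.63, 0.744, 1.24 and 3.32 CPM in controls and 97, 94.5, 78.1, 58.1 and 76.4 CPM with anti-CD40 (5.71 ± 0.38, adjusted p = 4.46e-10). Slc7a7, a cationic amino acid transporter, read 2.73, 2.71, 2.42, 2.3 and 3.87 and 20.7, 29.9, 23.4, 27.4 and 23.8 CPM in the same order (3.15 ± 0.22, adjusted p = 1.01e-11). Neither gene's groups overlapped. Slc7a11, the cystine importer for glutathione synthesis, rose by 4.24 ± 0.70 and the prostaglandin transporter Slco2a1 by 2.96 ± 0.26. The nucleoside transporter Slc29a1 read 145, 170.0, 175, 212 and 191 CPM in controls and 50.3, 52.4, 45.7, 44.8 and 41.5 CPM with anti-CD40 (-1.93 ± 0.10, adjusted p = 1.11e-13). The organic anion transporter Slc22a30 fell by 2.37 ± 0.18 and the drug exporter Slc47a1 by 2.44 ± 0.18.

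Of 14 genes of oxidative stress and metals 6 rose and 4 fell (median 0.53; with library totals 10 and 3). Srxn1, sulfiredoxin, a target of the stress factor NRF2 that repairs peroxiredoxins, read 35.1, 32.9, 30.3, 29.7 and 34.3 CPM in controls and 436, 487, 456, 412 and 562 CPM with anti-CD40 (3.86 ± 0.17, adjusted p = 1.98e-14). Each anti-CD40 mouse was far above each control, and mouse 15 was the highest. Keap1, the repressor of NRF2, rose from 24.3 ± 3.49 to 50.6 ± 2.05 CPM (1.06 ± 0.10, adjusted p = 2.04e-09). Blvrb, a biliverdin reductase, and G6pdx, of the pentose phosphate pathway, rose by 1.01 ± 0.13 and 1.0 ± 0.19. Aco1, the iron regulatory aconitase, fell by 0.61 ± 0.08 and the peroxidase gene Gpx6 by 3.49 ± 0.51.

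Of 10 genes in the chaperone list 5 rose and 1 fell (median 0.42): the chaperonin subunit Cct3 by 0.61 ± 0.08, Hsph1, of the Hsp110 family, by 0.89 ± 0.12, and the co-chaperone Stip1 by 0.56 ± 0.08, while Bag4 fell by 0.91 ± 0.14. Hspg2, caught by its name, is a matrix protein and did not pass. Among 21 nuclear receptors and liver transcription factors 4 rose, 5 fell and 12 did not pass, with a median of -0.10 under TMM and 0.23 under library totals. These shares were no larger than those of all genes tested, 26.6% higher and 24.9% lower. The estrogen receptor Esr1 read 18, 16.6, 22.5, 23.9 and 15.5 CPM in controls and 47.9, 48.3, 48.4, 43.3 and 45.1 CPM with anti-CD40, without overlap (1.27 ± 0.18, adjusted p = 2.7e-06). Nfib fell by 0.66 ± 0.10.

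Of 6 clock and glucocorticoid target genes 2 fell and 1 rose, beside 24.9% and 26.6% of all genes tested. The list median was -0.10, and 0.25 with library totals. Per1, a light- and glucocorticoid-induced clock gene, read 19.3, 48.6, 44.3, 60.3 and 34.9 CPM in controls and 20.0, 13.3, 21.7, 13.6 and 18.8 CPM with anti-CD40 (-1.24 ± 0.22, adjusted p = 7.12e-05). Control mouse 1 lay within the anti-CD40 range and the other 4 controls above it. Klf9 fell by 1.36 ± 0.40, a call lost with library totals. Fkbp5, another glucocorticoid target, moved by 0.38 ± 0.15, and the call was lost without mouse 1 (adjusted p = 0.112) and without any of mice 2, 5, 11, 12, 13 and 15.

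Most cell cycle genes did not pass the test: of 26 tested 7 rose, 4 fell and 15 did not pass (median 0.18), and with library totals 17 rose and none fell. Among all genes tested 26.6% rose and 24.9% fell, and with library totals 1035 rose and 312 fell. The centriole protein Cenpj rose from 1.48 ± 0.578 to 5.72 ± 1.3 CPM (1.93 ± 0.33, adjusted p = 2.33e-05). Cdc34, a ubiquitin-conjugating enzyme, rose by 0.53 ± 0.09, the motor gene Kif1c, which acts in transport and not in mitosis, fell by 0.46 ± 0.08, and the retinoblastoma-like Rbl2 fell by 0.46 ± 0.09. Kif1c and Rbl2 lost their calls with library totals.

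**Figure D4:**
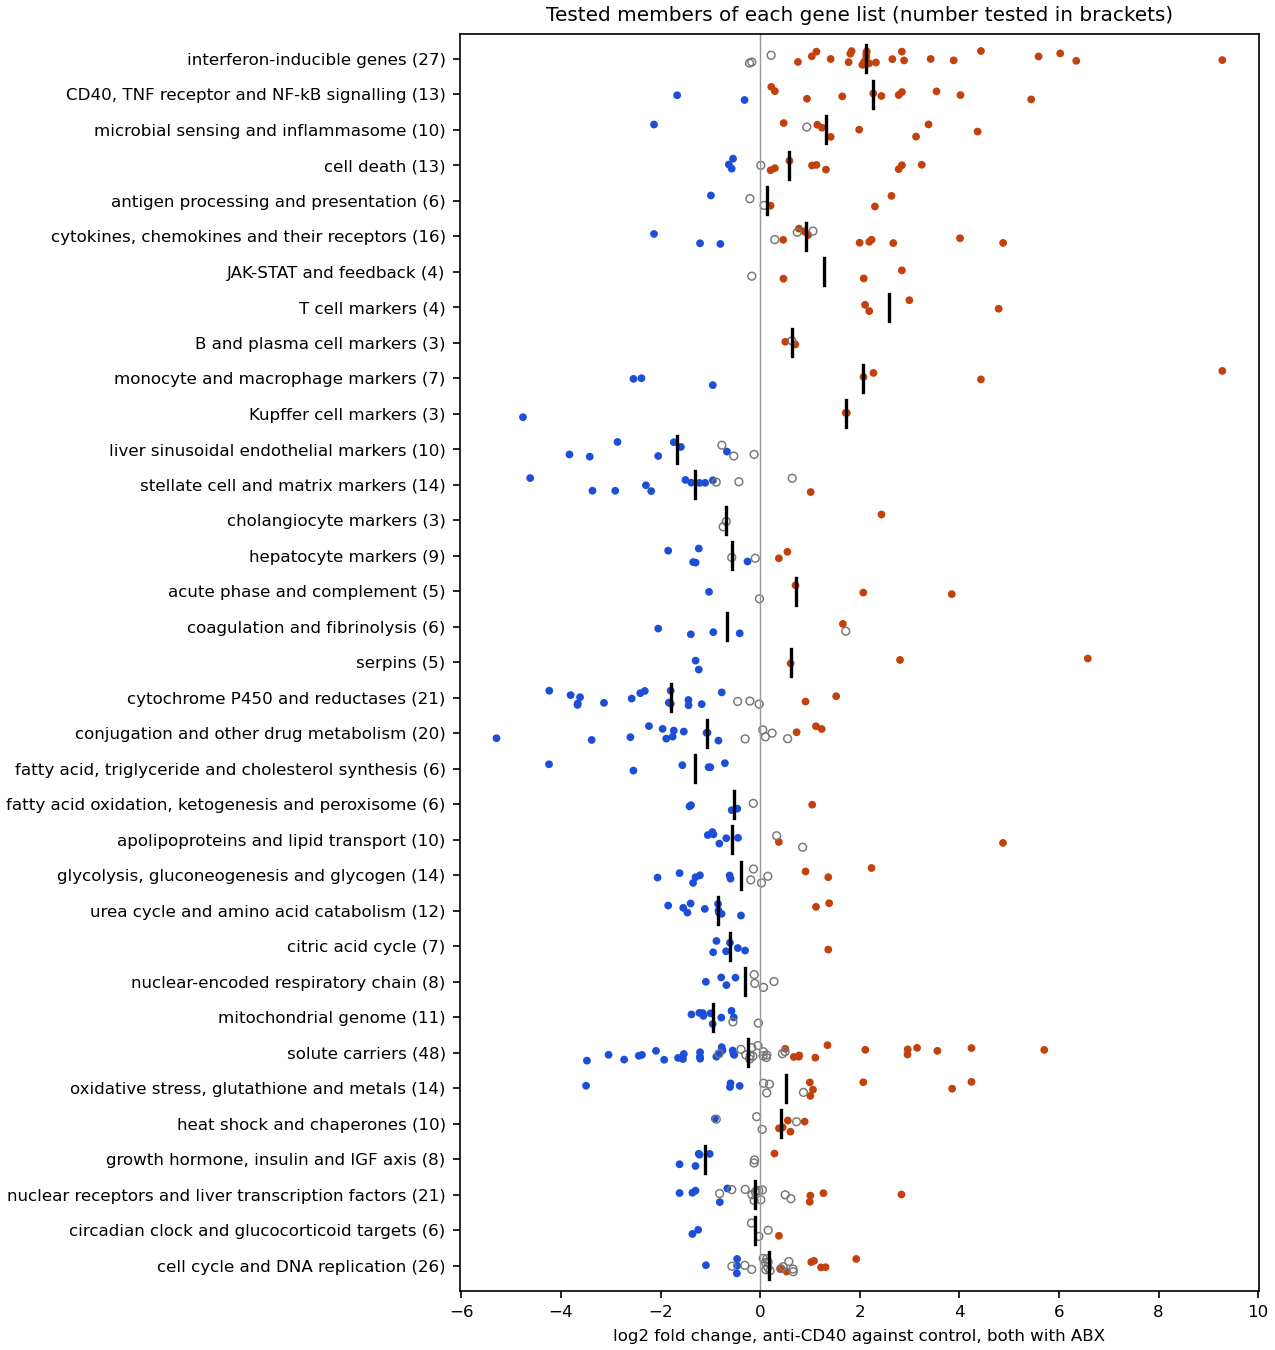
Log2 fold change (horizontal axis, anti-CD40 against control, both with ABX) of every tested member of 35 gene lists; filled points were called (orange higher, blue lower), open points were not, and bars mark list medians. The interferon and NF-kB lists have medians of 2.13 and 2.27 and the cytochrome P450 list -1.80; for 4 lists near 0 (nuclear-encoded respiratory chain, solute carriers, nuclear receptors, clock) the median changes sign with library totals.

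The largest changes outside these lists include genes whose reads are uncertain. Sybu, a protein that links vesicles to kinesin motors, read 0.963, 0, 0.558, 0.884 and 0 CPM in controls and 24.9, 24.8, 36.9, 35 and 34.1 CPM with anti-CD40 (5.92 ± 0.46, adjusted p = 9.72e-10). Rmi2, a subunit of the complex that dissolves recombination intermediates, read 0.16, 0, 0.744, 0 and 0.369 and 9.19, 9.01, 9.27, 12.5 and 9.26 CPM in the same order (5.20 ± 0.37, adjusted p = 1.86e-11). Both were higher in all 5 anti-CD40 mice. Apbb1 varied among anti-CD40 mice, with 372, 342, 530.3, 67.3 and 13.9 CPM against 0.625 ± 0.318 CPM in controls (8.66 ± 1.66, adjusted p = 0.000311); it was not called with plate column as a term (adjusted p = 0.17). Gm11212, a pseudogene among the acute phase Orm genes, read 188, 8.16, 21, 10.3 and 190.2 CPM with anti-CD40, high in mice 11 and 15 and low in the other 3 (7.15 ± 1.39, adjusted p = 0.000358). The pseudogene Gm28114 had no count in controls and 8.83, 6.46, 5.18, 4.16 and 2.16 CPM with anti-CD40, at least 49.2-fold higher against the 3-count floor.

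Among the falls, Pitx3, a homeobox factor, read 35.1, 17.7, 48.7, 10.6 and 42.8 CPM in controls and 0.18, 0.17, 0.471, 0 and 0.309 CPM with anti-CD40 (-6.97 ± 0.78, adjusted p = 7.11e-07). The controls ranged widely, and all lay far above the anti-CD40 mice. The pseudogene Gm19210 read 9.14, 8.31, 8.93, 8.13 and 7.57 CPM in controls and had no count with anti-CD40, at least 86.5-fold lower against the floor. Syt15, a synaptotagmin, fell by 4.58 ± 0.38 and the noncoding RNA Gm6135 by 3.63 ± 0.43.

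The response with ABX was set against that without ABX by testing the difference of the 2 effects in all 20 libraries. Each effect has its own controls. Among the controls without ABX, mouse 8 stood apart. The feature over Hp, Dhodh, Txnl4b and Pkd1l3 took 6.86% of its counts, against 1.26% to 1.72% in mice 6, 7, 9 and 10. The mitochondrial genome took 22.4% in mouse 8, against 28.9% to 31.1% in those mice. Mouse 8 was kept in the fit. Of 2200 genes 7.55% were called in that difference (166 genes), and 913 genes were called in both comparisons in the same direction. Of the 166, 107 were also called with ABX: the change was larger with ABX for 43, smaller for 44 and opposite for 20. With plate column as a term no gene was called (282 had an unadjusted p under 0.05), while DESeq2 without that term called 200. Without mice 14, 15, 19 and 20 the count was 79, and leaving out single mice gave 88 (mouse 14) to 194, with 94, 104, 109 and 110 without mice 18, 10, 4 and 5. Every difference below rests on the fit without the column.

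Signalling genes differed in both directions. Ripk2 rose more with ABX, from 9.65 to 199.7 CPM, than without, from 10.5 to 68 CPM (difference 1.68 ± 0.25, adjusted p = 0.000669). Fas (0.72 ± 0.16, adjusted p = 0.00962) and Tgtp2 (1.02 ± 0.20, adjusted p = 0.00348) also rose more with ABX. Cflar rose by 0.30 with ABX and 1.02 without (-0.73 ± 0.16, adjusted p = 0.00695), and Nfkbia by 1.65 and 2.46 (-0.81 ± 0.22, adjusted p = 0.0322). Foxo1 fell by 1.30 with ABX and changed by -0.23 without (difference -1.07 ± 0.16, adjusted p = 0.0005). Per1 fell with ABX and rose by 1.04 ± 0.22 without (difference -2.28 ± 0.31, adjusted p = 0.0005). Its control mean was 41.5 CPM with ABX and 16.4 CPM without, and its anti-CD40 means were 17.5 and 33.6 CPM. The Nfkbia difference lost its call with library totals and without several single mice, mouse 14 among them.

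Sat1, the spermidine acetyltransferase, changed by 0.19 with ABX and 1.40 without (difference -1.21 ± 0.19, adjusted p = 0.000669). Smox, spermine oxidase, changed by 0.87 and 3.09 (difference -2.22 ± 0.51, adjusted p = 0.0153). Both enzymes break down polyamines, and both changes were smaller with ABX, where neither passed the test with TMM scaling and all 20 libraries (adjusted p = 0.252 and 0.0593). The Smox groups with ABX did not overlap (14.1 ± 2.16 CPM in controls, 25.7 ± 4.4 CPM with anti-CD40). Smox was called higher with ABX in the fit of the 2 ABX groups alone (0.88, adjusted p = 4.97e-05), in DESeq2 (0.86, adjusted p = 0.0252), with library totals (1.21, adjusted p = 0.015) and with totals without mitochondrial counts (1.04, adjusted p = 0.0379). Sat1 was called higher with ABX under the same totals (0.53, adjusted p = 0.00426, and 0.36, adjusted p = 0.0404). With plate column as a term the difference between effects was called for neither gene (adjusted p = 0.162 for Sat1 and 0.425 for Smox). Several drug-metabolising genes fell less with ABX: Akr1d1 (1.18 ± 0.22, adjusted p = 0.00376), Aldh1a1 (0.95 ± 0.17, adjusted p = 0.00195), Aldh3a2 (0.82 ± 0.23, adjusted p = 0.0359), Dpys (0.79 ± 0.23, adjusted p = 0.0417) and Cyp3a59 (0.86 ± 0.23, adjusted p = 0.0249). The Aldh3a2, Dpys and Cyp3a59 calls were lost without mouse 14, and the first 2 also without several other mice. Gpr146, a receptor linked to plasma cholesterol, fell less too (0.81 ± 0.13, adjusted p = 0.000669), and Frat1, a Wnt pathway activator, moved by 0.44 with ABX and -0.81 without (difference 1.25 ± 0.20, adjusted p = 0.000669). The Frat1 change with ABX was not called without mouse 14.

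**Figure D5:**
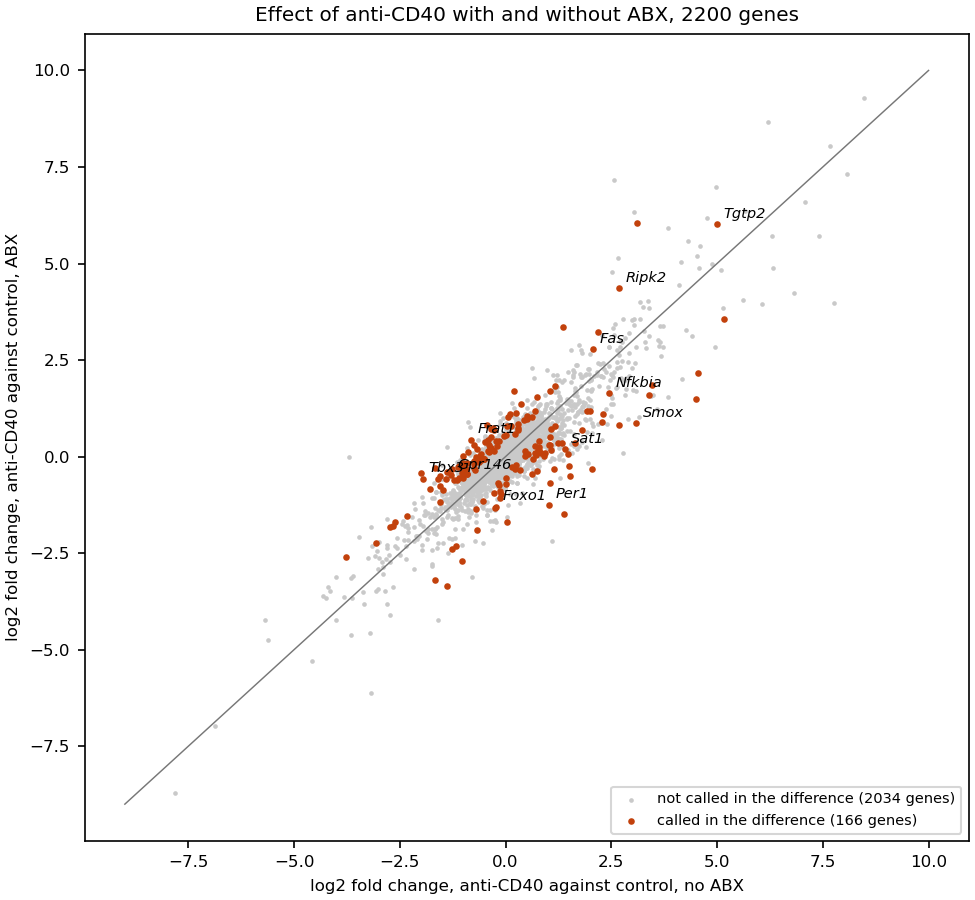
Log2 fold change of anti-CD40 against control without ABX (horizontal axis) and with ABX (vertical axis) for 2200 genes; the line marks equal effects and orange points are the 166 genes called in the difference. Most genes lie along the line; Ripk2, Fas and Tgtp2 lie above it, Foxo1, Per1, Sat1 and Smox below.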

How the data were processed

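RNA of snap-frozen liver from separate mice was sequenced, 5 mice in each of 4 groups. The submitters' processing notes name Trimmomatic 0.38, HISAT2 2.1.0 and the build mm10. Per the file headers, the authors made the deposited whole-number counts with featureCounts 1.5.0-p2, counting read pairs without strand over a human gene annotation. The row identifiers therefore name no mouse gene, and antisense partners cannot be told apart. Of 58395 features, 18918 had counts; 8331 overlapped exons of exactly 1 GENCODE mouse gene on mm10, 7463 of them by at least 50 bp (bedtools 2.31.1), which gave 5552 genes, 4217 with counts. Features over several genes held 52.34% of all counts, stayed in the library totals and were not assigned.

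edgeR 4.0.16 (R 4.3.3) fitted the 4 group means to all 20 libraries with TMM scaling, filterByExpr and robust quasi-likelihood; every adjusted p is Benjamini-Hochberg over the 2200 genes tested unless another family is named. Depth limits precision for genes of a few counts, and intervals and floors of 3 counts cover counting error only. Shares were compared by exact permutation. Promoters of 1 chromosome were not used in the motif search. The fit was tested on simulated counts. Alternatives were DESeq2 1.42.0, library totals, other filters and overlaps, plate column as a term, the 2 ABX groups alone and leaving out mice; leaving out mice 14 and 15, alone or with 19 and 20, was added after seeing the data.

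The groups, gene lists and tests were chosen with earlier results of these data known. Genes were named by rule: per direction, the 12 called genes that changed most at a mean of at least 5 CPM, the 6 most abundant called genes, up to 4 genes with the smallest p in each of 35 described lists, the 6 genes with the smallest p in the difference between effects, and list members called there. Other list members, such as Irgm2, Nfkbiz, Tie1 and Scd2, were added after their values were seen. Some genes that the rule names are not reported here. No paired analysis was made, since no label pairs the mice.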

Additional observations from a re-analysis of the deposited data

Results flagged for a closer look

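One mouse stood far from the other 4 of its group, by Dixon's criterion at 95%, in 23 of 326 groups examined, or 7.06%; chance flags about 1 in 20. Values are log2 CPM. Control mouse 1 held 7 of the 23: Ambp (11.72), Bag4 (4.43), Cp (9.89), Fkbp5 (4.87), Il15ra (5.31), Nfkbia (5.72) and the number of genes with a count, 3128. The other controls were mouse 3 for Nfkb2 (0.70) and Nid2 (3.94), mouse 4 for Akr1d1 (8.37), Cyp2c50 (10.07) and Keap1 (4.23), and mouse 5 for Gm12185 (0.85) and Mttp (8.44). Of the anti-CD40 mice, mouse 12 stood apart for Fbln5 (-0.26), Syt15 (-0.59) and Ncor1 (6.56), mouse 13 for Agxt (7.32), Bdh1 (7.84) and Ifih1 (4.97), and mouse 14 for Aco1 (6.70), Rmi2 (3.68) and Slc44a1 (4.57).

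By the test of the difference itself, the effect of anti-CD40 differed with and without ABX for 37 genes named by rule. Of these, 36 are given here. With plate column as a term none of the 2200 genes was called. The log2 difference, effect with ABX minus effect without, was positive for signalling and cell death genes Ripk2 (1.68), Tgtp2 (1.02), Dapk1 (0.83), Fas (0.72), Igf2r (0.68), Rptor (0.63) and Birc6 (0.61). It was positive for the enzymes Akr1d1 (1.18), Aox1 (1.04), Aldh1a1 (0.95), Cyp3a59 (0.86), Aldh3a2 (0.82), Dpys (0.79), Pfkm (0.60), Aco1 (0.54) and Suclg2 (0.45). Transporters with a positive difference were Slc16a12 (1.39), Slc25a17 (1.0), Slc6a6 (0.95), Slc12a7 (0.74) and Slc44a1 (0.67), and other genes were Tbx3 (1.39), Frat1 (1.25), Gpr146 (0.81), Keap1 (0.55), Rbl2 (0.55) and Ncor1 (0.43). It was negative for Per1 (-2.28), Smox (-2.22), Sat1 (-1.21), Slc25a36 (-1.14), Foxo1 (-1.07), Bhlhe40 (-0.91), Nfkbia (-0.81), Cflar (-0.73) and mt-Nd1 (-0.61).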

How the results depend on the processing

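No paired analysis was possible because the mice are numbered 1 to 20 across the groups and share no number. The 1133 genes called with ABX became 752 (362 lower) when attribution needed 200 bp, where fewer genes were tested, and 690 (350 higher, 340 lower) with plate column as a term. Library totals gave 1035 higher and 312 lower, with the median of all genes moved to 0.37. The 166 genes called in the difference between effects became 83 with library totals without mitochondrial counts, 0 when plate column entered the fit (282 at an unadjusted p under 0.05, and 200 by DESeq2 without that term), 79 without mice 14, 15, 19 and 20, and 88 to 194 without single mice. The excess of genes with a count, 49.2 per library with anti-CD40, ranged from 36.8 to 84.4 without single mice and passed the exact permutation test only without control mouse 1 (adjusted p = 0.0159). List medians that changed sign were those of the 7 monocyte and macrophage markers (-0.93 at a mean of at least 50 counts), the 3 cholangiocyte markers (0.76 at 200 bp, 0.88 with the 2 ABX groups alone, 0.37 with plate column), the nuclear-encoded respiratory chain (0.041) and the solute carriers (0.10), both with library totals, and 2 lists with medians of -0.10, nuclear receptors (0.23 with library totals, 0.041 with totals without mitochondrial counts) and clock (0.25, 0.072, 0.068 at 200 bp, 0.035 with plate column). These are among 35 lists described; of all 54 lists, 12 medians changed sign with library totals. Apart from the filters and overlaps, which changed which genes were tested, the cause was not tested. Of the 148 named genes called with ABX, 142 were also called without each mouse in turn; library totals lost 8 calls among the 163 named genes and plate column lost 19. Of the genes named by rule, Ncor1 changed sign and was called with library totals (-0.07 to 0.28, adjusted p = 0.0472), and none called with TMM changed sign under any alternative run; outside the rule 56 did with library totals, Chuk among them. Depth limits genes of a few CPM, such as Cd8a, Il2ra and Gzmk.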

Other observations

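Genes that hepatocytes express in zones of the liver lobule fell on both sides. Of 9 tested pericentral genes 7 fell and 1 rose (median -1.79), and of 12 tested periportal genes 8 fell and 3 rose (median -1.32). On the pericentral side Gulo, the last enzyme of vitamin C synthesis, fell from 1059 ± 72.9 to 199 ± 32.8 CPM (log2 change -2.41 ± 0.13, adjusted p = 9.19e-14), and Cpox, an enzyme of heme synthesis, from 301 ± 43.9 to 99.7 ± 3.7 CPM (-1.59 ± 0.13, adjusted p = 2.45e-10). Alad, an earlier enzyme of heme synthesis, fell from 259 ± 20.6 to 112 ± 14.5 CPM (-1.21 ± 0.11, adjusted p = 1.38e-09). These genes and those below were picked after their values were seen.

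Of 12 lysosome and autophagy genes 7 fell and 3 rose, with a median of -0.28 under TMM and 0.07 under library totals. Ulk2, a kinase that starts autophagy, fell from 191 ± 20.5 to 76.9 ± 5.02 CPM (-1.32 ± 0.09, adjusted p = 3.84e-12), and Atg16l2 rose from 10.2 ± 2.61 to 45 ± 8.07 CPM (2.13 ± 0.19, adjusted p = 3.25e-09). Both tested proteasome genes rose, Psmd2 by 0.57 ± 0.09 and Psma6 by 0.45 ± 0.09. Of 25 splicing factor genes 10 rose and 2 fell (median 0.21), and of 37 cytoskeleton and adhesion genes 9 rose and 7 fell. The cytoskeleton shares were no larger than those of all genes tested, 26.6% higher and 24.9% lower. The myosin gene Myo1f, expressed in leukocytes, rose from 1.91 ± 0.499 to 10.6 ± 1.87 CPM (2.45 ± 0.28, adjusted p = 4.95e-08), and Cldn1, of tight junctions, fell from 199 ± 18.6 to 87.9 ± 5.22 CPM (-1.18 ± 0.14, adjusted p = 3.91e-07). In the list of immediate early and MAPK genes 8 of 23 rose and 6 fell, beside 26.6% and 24.9% of all genes tested. The phosphatase Dusp10 rose from 5.55 ± 1.15 to 17.6 ± 1.27 CPM (1.67 ± 0.16, adjusted p = 3.71e-09).

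Single genes of other roles also changed. The vitamin D receptor gene Vdr rose from 0.229 ± 0.418 to 1.88 ± 0.896 CPM (2.84 ± 0.67, adjusted p = 0.000969). The citrate importer Slc13a5 went from 0.428 ± 0.215 to 5.22 ± 1.6 CPM (3.56 ± 0.60, adjusted p = 3.67e-05). Pdk3, a kinase that shuts off pyruvate dehydrogenase, rose from 0.314 ± 0.22 to 1.59 ± 0.806 CPM (2.24 ± 0.63, adjusted p = 0.00471). In the cell cycle list the replication helicase Hells rose by 1.31 ± 0.27 and the mitotic motors Kif11 and Kif20b by 1.03 ± 0.37 and 1.22 ± 0.33, while Ccnb2, cyclin B2, fell by 1.09 ± 0.29, a call lost with library totals. Pcna (0.16 ± 0.12) and Rrm1 (0.20 ± 0.12) did not pass.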
